A study of Mus musculus with 6 samples.

Results

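The genes described here encode the proteasome and the proteins that regulate or assemble it, in mouse kidneys with and without a knockout of Hspa8. They were taken from the expression table by symbol: Psm, then 1 of the letters a to g, then a number, leaving out pseudogenes. The rule found 51 of 34714 genes. It used no expression value. By the letter, 8 genes belong to the alpha ring of the core particle (Psma) and 8 to its beta ring (Psmb), constitutive except for Psmb11 of the thymus. The 3 inducible catalytic subunits Psmb8, Psmb9 and Psmb10 form the immunoproteasome. The regulatory particle has 6 ATPases (Psmc) and a non-ATPase series of 14 genes (Psmd), of which Psmd5, Psmd9 and Psmd10 encode chaperones of its assembly. There are 5 activators (Psme), 1 inhibitor (Psmf1) and 4 assembly chaperones (Psmg). The rule also takes 2 genes that are not subunits, Psmc3ip and Psme3ip1, which are named after subunits their proteins bind.

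The proteasome is the cell's main machine for degrading proteins tagged with ubiquitin. Alpha and beta rings stack into a hollow core particle, whose inner beta subunits cut the substrate. A regulatory particle docks on the end of the core, where non-ATPase subunits recognise ubiquitin and remove it, and a ring of ATPases unfolds the substrate and feeds it in. Interferon signalling and immune cells replace the catalytic beta subunits with Psmb8, Psmb9 and Psmb10, which alters the peptides offered on MHC class I. HSC70, the chaperone that Hspa8 encodes, holds misfolded proteins on their way to folding or to ubiquitination.

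Whole-kidney RNA was sequenced from 3 Hspa8 knockout samples and 3 wild-type samples, all from 8-week-old mice on normal chow. The labels list floxed Hspa8 mice on C57BL/6J and Cdh16-Cre mice as the sources, without spelling out the cross that gave the knockout samples. Cdh16 is a gene of tubule epithelium, so vessels, leukocytes and glomerular cells of such a kidney would keep Hspa8. The wild-type titles carry C57 and the knockout titles name no strain, so the floxed allele, the Cre and the background cannot be told apart from the loss of Hspa8. Whether each sample came from its own animal is not labelled, so a p-value here weighs the spread among the sequenced samples and that spread may be technical. The values are fragments per kilobase of transcript, scaled to mapped depth (FPKM), and their read depth is unknown. Length has been divided out, so levels of different genes can be compared roughly, although differences between libraries still followed transcript length.

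Hspa8 itself had 650, 699 and 781 FPKM in the knockout libraries, against 1058, 1092 and 1318 FPKM in the wild-type libraries. The groups did not overlap, and the knockout mean of 710 ± 66.0 FPKM was 61.4% of the wild-type mean of 1156 ± 141 FPKM (SD, n = 3 each). The log2 fold change was -0.70 (SE 0.122), with a limma adjusted p of 0.866, and by p-value the gene ranked 4 among 12174 tested genes. Libraries summed to 381586 to 417123 FPKM, with 20715 to 21277 genes above 0. Over all genes limma called 0% of 12174 at an adjusted p under 0.05, while 629 genes (5.17%) had an unadjusted p under 0.05. Kidney identity was plain in every library: proximal tubule markers summed to 2353 to 2916 FPKM in knockout and 2452 to 2834 FPKM in wild-type libraries. Of 4 marker genes of other tissues, the adrenal gene Cyp11b1 was listed at 0, Ttn of muscle and Plin1 of fat were under 1 FPKM in every library, and Alb of liver had 1.83 to 2.62 FPKM in knockout and 1.43 to 2.17 FPKM in wild-type libraries. Globin genes stood out, and with the erythroid gene Alas2 they summed to 413, 69.4 and 545 FPKM in knockout libraries, against 43.3, 51.4 and 53.4 FPKM in wild-type libraries.

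The core particle had the most abundant transcripts of the machine in these kidneys. Averaged over the 6 libraries, the highest level of all 51 genes was that of Psmb5, a constitutive catalytic subunit, at 147 FPKM, followed by Psmb7 and Psmb4 at 126 FPKM each. The tested constitutive beta subunits had a median level of 103 FPKM and lay between 46.8 FPKM (Psmb2) and 147 FPKM (Psmb5). The alpha subunits had a median of 76.8 FPKM and reached 121 FPKM (Psma4), with Psma3 lowest at 34.5 FPKM. These levels show a core whose subunits, present once in every ring, were spread over a wide range of mRNA levels. The ATPases were tighter, between 59.4 FPKM (Psmc4) and 90.7 FPKM (Psmc3) with a median of 67.0 FPKM. The non-ATPase genes had a median of 44.4 FPKM, and ran between 8.77 FPKM (Psmd9) and 65.6 FPKM (Psmd4). The inducible trio stood at the bottom of the tested subunits: Psmb10 had 6.49 FPKM, Psmb8 5.39 FPKM and Psmb9 3.72 FPKM, ranks 46, 47 and 48 of the 51.

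Both genes that were left untested are known from single tissues. Psma8, the alpha subunit of spermatocytes, averaged 0.134 FPKM over the 6 libraries, and Psmb11, the catalytic subunit of thymic cortical epithelium, was listed at 0 in every library. The other 49 genes had a mean of at least 1 FPKM and entered the test. Together the 51 genes summed to 2424, 2616 and 2338 FPKM in knockout libraries, against 2494, 2437 and 2522 FPKM in wild-type libraries. That was 0.617%, 0.628% and 0.613% of all FPKM in knockout libraries, against 0.613%, 0.603% and 0.605% in wild-type libraries. The sums of the groups overlapped. As a share of the library the groups did not overlap, with knockout higher, although the lowest knockout share and the highest wild-type share both round to 0.613%.

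**Figure D1:**
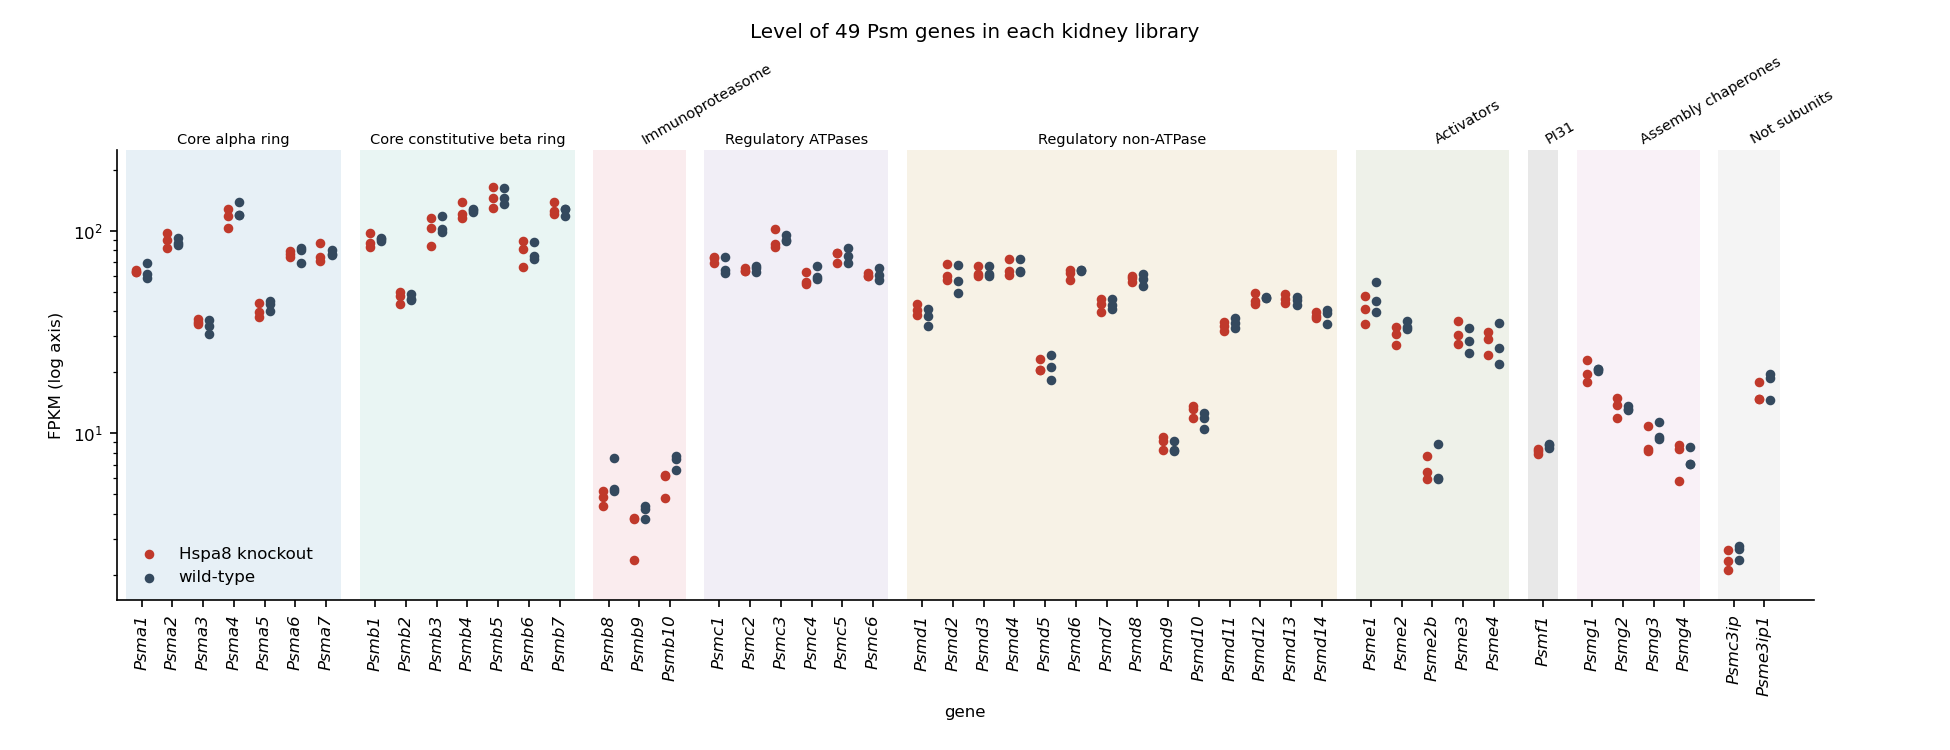
FPKM (log axis) of the 49 tested genes in each library, grouped by subcomplex, with the 3 knockout libraries left of the 3 wild-type libraries for each gene. Psmb5 is highest at a mean of 147 FPKM, the immunoproteasome genes lie at 3.72 to 6.49 FPKM, and the points of both groups overlap for nearly every gene.

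Against this background no proteasome gene passed the test. Of the 49 tested genes 0 were called at an adjusted p under 0.05, beside 0% of all genes. The only gene with an unadjusted p under 0.05 was Psmb10, against 5.17% of all genes. The log2 fold changes were above 0 for 19 genes and below 0 for 30 (61.2%), where 64.9% of all tested genes were below 0. Their median was -0.014, against -0.040 over all genes, and they ran between -0.30 (Psmb10) and 0.14 (Psmd10). This split depends on scaling: with library sums equalised 34 genes were above 0 and 15 below, and with library medians equalised 35 and 14, where 50.2% and 46.5% of all genes were below 0. The 95% interval of the log2 fold change lay inside -0.5 to 0.5 for 45 of the 49 genes. The exceptions were Psmb8, Psmb9, Psmb10 and Psme1. Every knockout value was below every wild-type value for 2 genes, Psmb10 and Psmf1, beside 8.57% of all genes, and above for 0 genes, beside 2.01% of all genes.

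**Figure D2:**
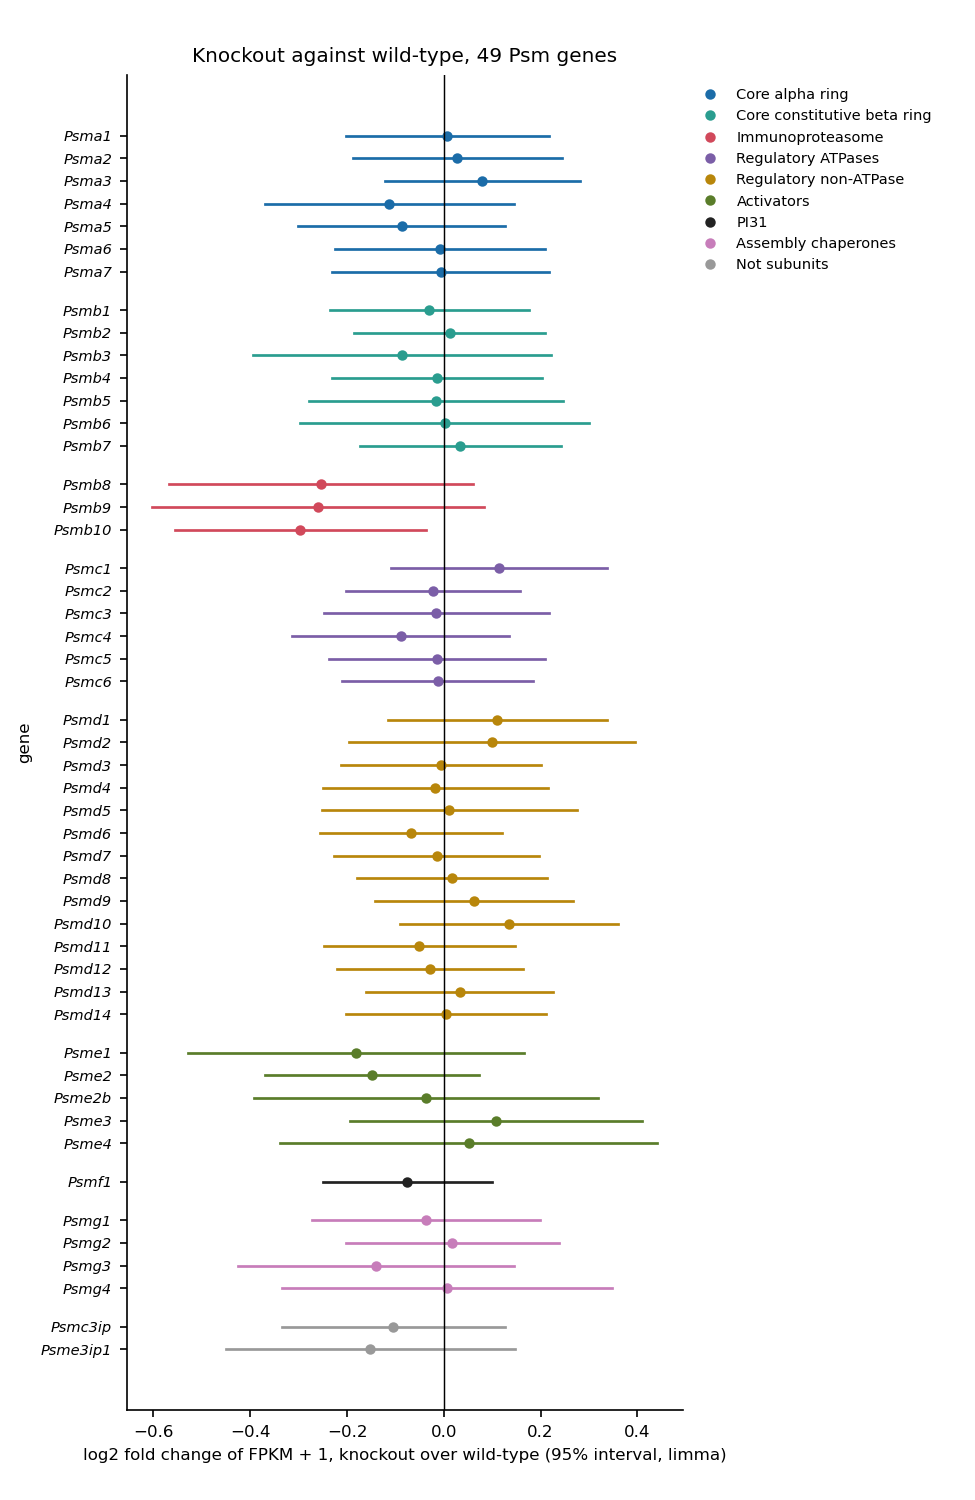
Log2 fold change of FPKM + 1, knockout over wild-type, with its 95% limma interval for the 49 tested genes, coloured by subcomplex. Most points lie close to 0, Psmb8, Psmb9 and Psmb10 lie lowest at -0.25 to -0.30, and the interval of Psmb10 alone does not reach 0.

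The immunoproteasome genes had the 3 lowest log2 fold changes of the 49, though none passed the test. Psmb8, the inducible counterpart of Psmb5 (chr17:34198195-34201454, GRCm38.p6), had 4.85, 5.20 and 4.35 FPKM in knockout libraries, against 5.28, 5.16 and 7.50 FPKM in wild-type libraries. The groups overlapped, and wild-type replicate 3 stood above the rest. Its mean was 4.80 ± 0.431 FPKM in knockout and 5.98 ± 1.32 FPKM in wild-type (SD, n = 3 each), with a log2 fold change of -0.25 (SE 0.137, 95% interval -0.57 to 0.061, limma adjusted p = 0.973). Psmb9, the inducible counterpart of Psmb6 (chr17:34182030-34187330), had 3.79, 3.83 and 2.35 FPKM in knockout libraries, against 3.77, 4.22 and 4.36 FPKM in wild-type libraries. Knockout replicate 3 was the low one, and the other knockout values overlapped the wild-type ones. Its mean was 3.32 ± 0.841 FPKM in knockout and 4.11 ± 0.311 FPKM in wild-type (SD, n = 3 each), with a log2 fold change of -0.26 (SE 0.149, 95% interval -0.60 to 0.083, limma adjusted p = 0.981). Psmb10, the inducible counterpart of Psmb7 (chr8:105935728-105938392), had 6.23, 6.16 and 4.80 FPKM in knockout libraries, against 7.47, 6.56 and 7.70 FPKM in wild-type libraries. Here the groups did not overlap. Its mean was 5.73 ± 0.806 FPKM in knockout and 7.24 ± 0.600 FPKM in wild-type (SD, n = 3 each), with a log2 fold change of -0.30 (SE 0.113, 95% interval -0.56 to -0.037, limma unadjusted p = 0.0298, adjusted p = 0.945).

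Set against the wild-type mean, the knockout mean was 80.3% for Psmb8, 80.8% for Psmb9 and 79.1% for Psmb10. Among all 12174 tested genes, 5.73% had a lower log2 fold change than Psmb8, 5.31% a lower one than Psmb9 and 3.72% a lower one than Psmb10. Single libraries weighed heavily on these values. Without wild-type replicate 3 the log2 fold change of Psmb8 was -0.10, and without knockout replicate 3 that of Psmb9 was -0.087 and that of Psmb10 -0.19. The direction was below 0 for all 3 genes under every alternative run, and the adjusted p of Psmb10 stayed between 0.667 and 1.00 over its 16 alternatives. In whole kidney, fewer cells of a type that carries these transcripts and less RNA in each cell cannot be told apart.

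The region before the transcription start of the inducible genes and of 2 of their constitutive counterparts is shown because different factors are known to act on the 2 classes, interferon-activated factors on the inducible genes and NRF1, the stress factor encoded by Nfe2l1, on the constitutive ones. The sequences are from RefSeq on GRCm38.p6, written 5′ to 3′ on the strand of the gene, with motif matches in capitals. Bases inside annotated exons of the gene were left out, except in the 29-base stretches around the matches in Psmb8, Psmb9 and Psmb6. The Psmb6 stretch lies before the start used for its promoter window but inside the span of the RefSeq gene (chr11:70525324-70527858). In Psmb8 (chr17:34198088-34198116, plus strand) the capitals mark TTCNNNGAA, the spacing of a gamma-activated sequence, and in Psmb9 (chr17:34187331-34187359, minus strand) they mark the reverse complement of CCAAT. The Psmb10 stretch (chr8:105938445-105938642, minus strand) holds none of the motifs searched. In Psmb5 (chr14:54618023-54618245, minus strand) and Psmb6 (chr11:70525328-70525356, plus strand) the capitals mark TGACNNNGC, the core of an antioxidant response element, which NRF1 and NRF2 can bind.
Psmb8: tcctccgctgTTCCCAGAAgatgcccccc
Psmb9: ctgcaccgcgcgcagccgctgATTGGaaa
Psmb10: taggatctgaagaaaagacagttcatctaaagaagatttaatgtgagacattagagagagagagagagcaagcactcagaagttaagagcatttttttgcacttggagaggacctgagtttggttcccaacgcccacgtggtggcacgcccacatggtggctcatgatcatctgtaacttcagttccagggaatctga
Psmb5: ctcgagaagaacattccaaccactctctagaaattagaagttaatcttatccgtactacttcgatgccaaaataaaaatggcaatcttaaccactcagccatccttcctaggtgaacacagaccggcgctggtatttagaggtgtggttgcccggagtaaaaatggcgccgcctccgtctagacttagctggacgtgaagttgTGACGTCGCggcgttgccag
Psmb6: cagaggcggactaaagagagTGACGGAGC

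The share of proteasome windows with a match lay close to that of genes at large for TGACNNNGC and CCAAT, as a description of letters and not of binding. RefSeq promoter windows of 250 bases were at hand for 43 of the 51 genes, in 47 windows, and both strands were searched. TGACNNNGC was found in 10.6% of these windows, before Psmb5, Psmb6, Psmc6, Psmd12 and Psmd9, and in 10.2% of all 32851 windows. CCAAT was found in 34.0%, against 33.8% of all windows, and TTCNNNGAA in 4.26%, before Psmb8 and Psmg1, against 7.02% of all windows. The core of an interferon-stimulated response element, GAAA repeated after any 2 bases, was found in 6.38% (Psmb3, Psmd4 and Psmd9), against 2.98% of all windows. None of the immunoproteasome windows held that element in these letters. Single matches in so few windows say nothing of which factors act there.

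The constitutive catalytic subunits had nearly equal means in both groups. Psmb5, which carries the chymotrypsin-like activity, had 145, 164 and 130 FPKM in knockout libraries, against 136, 145 and 162 FPKM in wild-type libraries. Psmb6, which carries the caspase-like activity, had 81.5, 88.4 and 66.3 FPKM in knockout libraries, against 72.0, 74.9 and 88.2 FPKM in wild-type libraries. Psmb7, which carries the trypsin-like activity, had 125, 138 and 121 FPKM in knockout libraries, against 119, 127 and 129 FPKM in wild-type libraries. In all 3 the groups overlapped. The means were 146 ± 17.0 FPKM in knockout and 147 ± 13.2 FPKM in wild-type for Psmb5, 78.7 ± 11.3 FPKM in knockout and 78.4 ± 8.62 FPKM in wild-type for Psmb6, and 128 ± 9.09 FPKM in knockout and 125 ± 5.36 FPKM in wild-type for Psmb7 (SD, n = 3 each). Their log2 fold changes were -0.016 (95% interval -0.28 to 0.25), 0.0018 (-0.30 to 0.30) and 0.034 (-0.17 to 0.24), and the sign of each turned in some alternatives.

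Dividing each inducible subunit by the constitutive subunit whose place it takes removes the scaling of a library, but not a trend with transcript length. Psmb5 and Psmb6 have shorter transcripts (899 and 798 nt) than Psmb8 and Psmb9 (1628 and 1352 nt). The ratios were not rerun with such a trend removed, so its part in them was not tested. Psmb8 was 3.35%, 3.18% and 3.35% of Psmb5 in knockout libraries, against 3.90%, 3.56% and 4.64% in wild-type libraries. Psmb9 was 4.65%, 4.33% and 3.55% of Psmb6 in knockout libraries, against 5.23%, 5.63% and 4.95% in wild-type libraries. Psmb10 was 5.00%, 4.45% and 3.97% of Psmb7 in knockout libraries, against 6.29%, 5.15% and 5.99% in wild-type libraries. For all 3 pairs every knockout library was below every wild-type library, although Psmb8 and Psmb9 on their own overlapped. The means were 3.29% ± 0.0996 in knockout and 4.03% ± 0.554 in wild-type for the first pair, 4.18% ± 0.565 in knockout and 5.27% ± 0.345 in wild-type for the second, and 4.47% ± 0.514 in knockout and 5.81% ± 0.590 in wild-type for the third (SD, n = 3 each). The differences in mean log2 ratio were -0.28, -0.34 and -0.38. Each had p = 0.1 in an exact two-sided permutation test, the smallest p that 3 against 3 samples allow, and 0.1 after Benjamini-Hochberg adjustment over the 3 ratios, so none could pass 0.05. Separation of this kind was found for 8.43% of all tested genes when divided by Psmb5, for 8.27% when divided by Psmb6 and for 13.6% when divided by Psmb7. The first ratio leaned on wild-type replicate 3, without which its difference was -0.18.

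**Figure D3:**
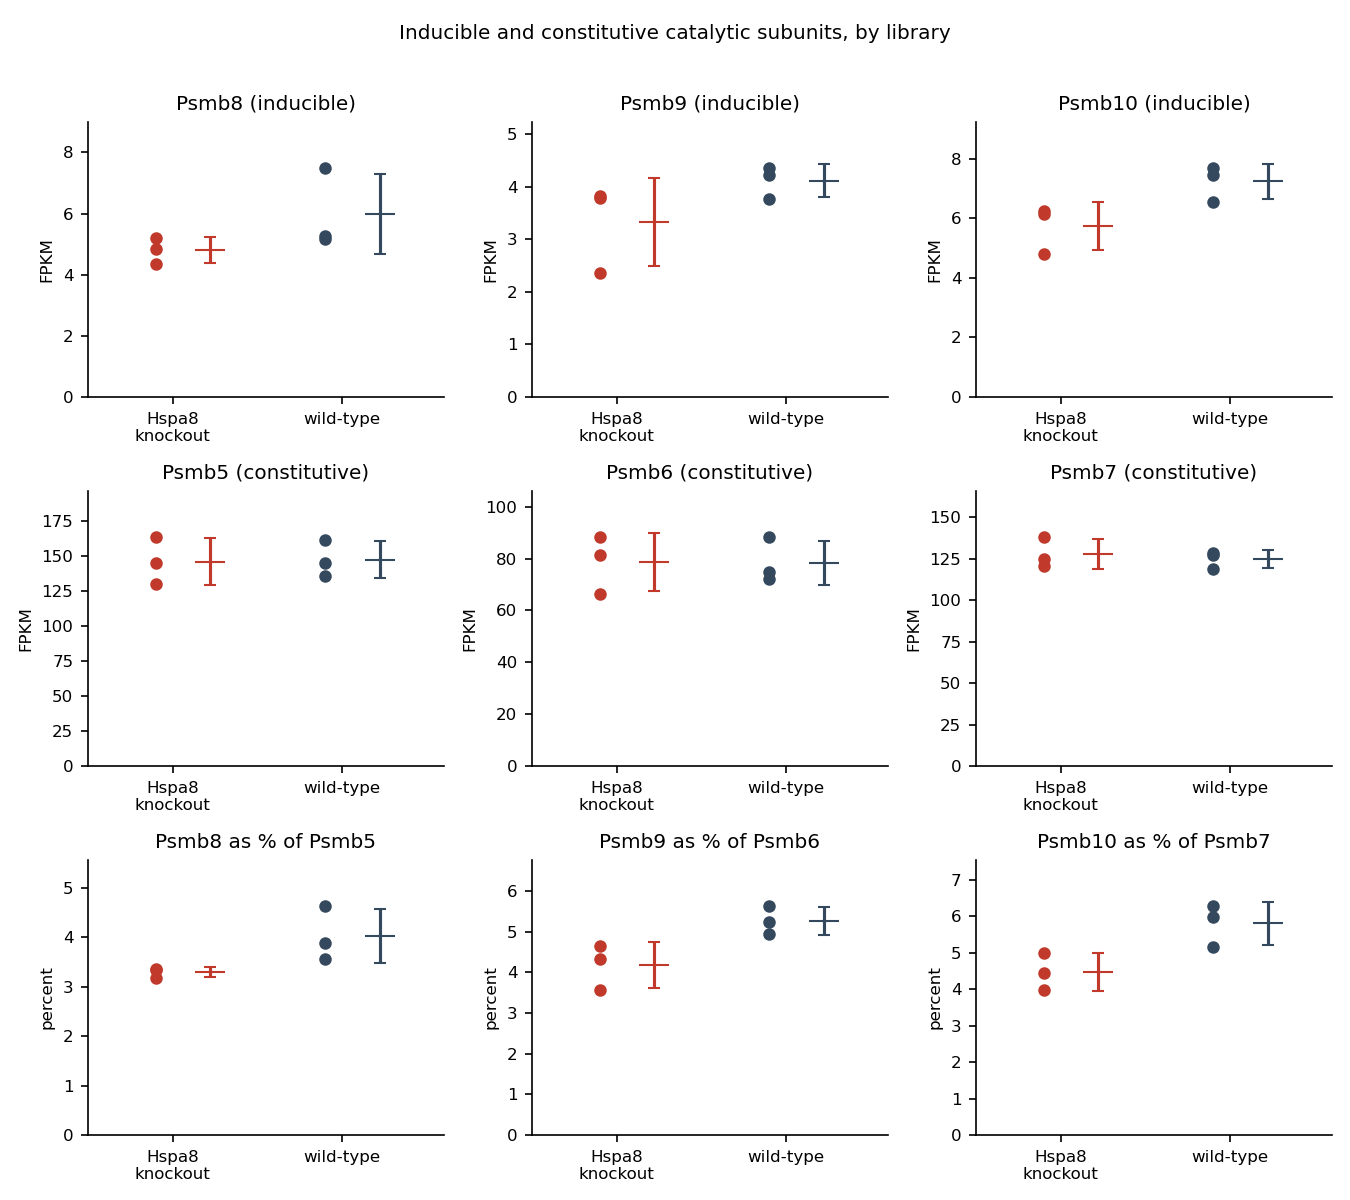
FPKM of the inducible catalytic subunits (top), of their constitutive counterparts (middle) and the inducible subunit as a percentage of its counterpart (bottom), per library with mean and SD (n = 3 each), knockout left of wild-type. In the bottom panels the knockout points lie at 3.18% to 5.00% and below all wild-type points of the same pair, while the constitutive subunits overlap.

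Among the alpha and constitutive beta subunits of the core, values scattered around no difference. The log2 fold change was positive in 3 and negative in 4 of the 7 tested alpha subunits, its median was -0.0067 and its range -0.11 to 0.080, and 0 passed the test. With library sums equalised 5 were positive and 2 negative. The alpha subunits form the outer rings and the gate of the core. Psma4 had 118, 128 and 103 FPKM in knockout libraries, against 119, 119 and 139 FPKM in wild-type libraries (log2 fold change -0.11, SE 0.112). Psma5 had 39.6, 43.9 and 37.4 FPKM in knockout libraries, against 44.9, 43.2 and 40.3 FPKM in wild-type libraries (log2 fold change -0.087). Both overlapped between the groups, and both had a limma adjusted p of 0.998. Of the 7 tested constitutive beta subunits 3 were above 0 and 4 below, with a median of -0.014 and a range of -0.087 to 0.034, and with library sums equalised 6 were above 0 and 1 below. The lowest was Psmb3, a non-catalytic subunit, with 102, 116 and 83.7 FPKM in knockout libraries, against 99.0, 102 and 118 FPKM in wild-type libraries. Its highest and lowest libraries differed by 1.41-fold, with knockout replicate 3 lowest and wild-type replicate 3 highest. Over both rings the 95% intervals reached down to -0.39 and up to 0.30 on the log2 scale.

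In the regulatory particle, the ATPases that unfold substrates had 5 negative log2 fold changes and 1 positive, which turned to 1 negative and 5 positive with library sums equalised. On the deposited scale they had a median of -0.015 and a range of -0.089 to 0.11. Psmc1 had 68.9, 73.3 and 74.1 FPKM in knockout libraries, against 74.3, 64.2 and 61.7 FPKM in wild-type libraries (log2 fold change 0.11). Psmc4 had 55.8, 62.3 and 54.5 FPKM in knockout libraries, against 59.2, 57.6 and 67.1 FPKM in wild-type libraries (log2 fold change -0.089). Neither separated the groups. Psmc2 was the steadiest of the 49 genes, and its highest library exceeded its lowest by 1.07-fold, with means of 64.0 ± 1.40 FPKM in knockout and 65.0 ± 2.11 FPKM in wild-type (SD, n = 3 each). Over the 49 genes this ratio had a median of 1.22 and reached 1.85 in Psmb9.

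The 14 non-ATPase genes had 8 values above 0 and 6 below, and 12 above and 2 below with library sums equalised, with a deposited-scale median of 0.0077 and a range of -0.067 to 0.14, and with 0 past the test. Psmd10 encodes gankyrin, a chaperone that holds an ATPase during assembly, and it had 13.7, 11.9 and 13.1 FPKM in knockout libraries, against 12.6, 11.9 and 10.5 FPKM in wild-type libraries. Its log2 fold change of 0.14 (SE 0.0979) was the highest of the 49. Psmd1, a large scaffold of the regulatory particle, had 40.6, 38.4 and 43.2 FPKM in knockout libraries, against 41.2, 38.0 and 34.0 FPKM in wild-type libraries (log2 fold change 0.11). In both genes the groups overlapped, and both had a limma adjusted p of 0.998. The ubiquitin receptor Psmd4 averaged 65.3 ± 6.02 FPKM in knockout and 66.0 ± 5.21 FPKM in wild-type, and the deubiquitinating subunit Psmd14 averaged 38.1 ± 1.30 FPKM in knockout and 38.0 ± 3.09 FPKM in wild-type (SD, n = 3 each). Psmd5 and Psmd9, which like Psmd10 act as assembly chaperones of the ATPase ring, had log2 fold changes of 0.011 and 0.062.

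The activators cap the core in place of the regulatory particle. Psme1 and Psme2 form the interferon-inducible PA28 ring, Psme3 a nuclear ring, and Psme4 encodes PA200. Psme1 (chr14:55578494-55581527) had 40.8, 47.5 and 34.7 FPKM in knockout libraries, against 39.8, 44.8 and 55.4 FPKM in wild-type libraries. Psme2 (chr14:55587440-55591101) had 30.9, 33.2 and 27.3 FPKM in knockout libraries, against 33.2, 32.5 and 35.6 FPKM in wild-type libraries. Both were lower on average in knockout, with log2 fold changes of -0.18 (95% interval -0.53 to 0.17) and -0.15 (-0.37 to 0.074), and both overlapped between groups. In both the lowest library was knockout replicate 3 and the highest wild-type replicate 3, as in Psmb8, Psmb9 and Psmb10. Without wild-type replicate 3 the value of Psme1 was -0.053. Psme2b, a copy of Psme2, had 6.40, 7.72 and 5.94 FPKM in knockout libraries, against 5.95, 6.03 and 8.88 FPKM in wild-type libraries. Reads of Psme2 and Psme2b may have been split between them, so both values are uncertain. The other activators lay above 0, at 0.11 for Psme3 and 0.052 for Psme4. Psme3 had 30.3, 27.5 and 35.7 FPKM in knockout libraries, against 33.0, 28.6 and 25.0 FPKM in wild-type libraries, and Psme4 had 29.1, 24.4 and 31.5 FPKM in knockout libraries, against 34.9, 26.2 and 21.8 FPKM in wild-type libraries.

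Psmf1 encodes PI31, a protein that blocks the core in the test tube and helps to carry proteasomes in neurons. It had 7.92, 8.39 and 8.20 FPKM in knockout libraries, against 8.74, 8.80 and 8.46 FPKM in wild-type libraries. The groups did not overlap but the gap was small, with means of 8.17 ± 0.236 FPKM in knockout and 8.66 ± 0.179 FPKM in wild-type (SD, n = 3 each). Its log2 fold change was -0.075 (95% interval -0.25 to 0.099), with a limma unadjusted p of 0.348 and an adjusted p of 0.998. With library medians equalised it was -0.025. The assembly chaperones Psmg1 to Psmg4, which build the alpha ring, had 2 values above 0 and 2 below, with a median of -0.015. The lowest was Psmg3, with 8.35, 10.8 and 8.19 FPKM in knockout libraries, against 9.57, 9.41 and 11.4 FPKM in wild-type libraries (log2 fold change -0.14, limma adjusted p = 0.998), and its groups overlapped. Of the 2 genes that are not subunits, Psmc3ip, a factor of meiotic recombination, averaged 2.36 ± 0.263 FPKM in knockout and 2.61 ± 0.220 FPKM in wild-type. Psme3ip1, whose protein binds Psme3, averaged 15.7 ± 1.80 FPKM in knockout and 17.6 ± 2.70 FPKM in wild-type (SD, n = 3 each).

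Across libraries the genes did not vary independently. Deviations from the mean of the 6 libraries followed transcript length, in opposite directions in different libraries of the same group. Over 48 genes with a known length, the correlation of deviation with log2 length was -0.063, -0.64 and 0.69 in knockout libraries 1 to 3, against 0.65, -0.045 and -0.63 in wild-type libraries 1 to 3. Over 11361 tested genes it was 0.090, -0.37 and 0.31 in knockout libraries, against 0.32, 0.076 and -0.31 in wild-type libraries. Genes of a library share its depth and preparation, so these are descriptions. In the 12 genes with the shortest transcripts (1157 nt or less) the median deviation was -0.032, 0.16 and -0.19 in knockout libraries, against -0.049, -0.019 and 0.15 in wild-type libraries. In the 12 with the longest (2148 nt or more) it was -0.013, -0.024 and 0.077 in knockout libraries, against 0.10, -0.034 and -0.12 in wild-type libraries. Short genes were thus above and long ones below their mean in knockout replicate 2 and wild-type replicate 3, the long ones only slightly in knockout replicate 2. The reverse was seen in knockout replicate 3 and wild-type replicate 1. Over the same 48 genes the log2 fold change itself had a correlation of 0.34 with log2 length, against 0.039 over all genes. With the length trend of each library removed, an alternative chosen after seeing the data, Psmb10 was at -0.24, Psmb9 at -0.20 and Psmb8 at -0.20, and Psmb10 had a limma adjusted p of 0.876. That step also removes differences in level between libraries. With library medians equalised alone, the values were close to these, at -0.25 for Psmb10, -0.22 for Psmb9 and -0.21 for Psmb8.

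**Figure D4:**
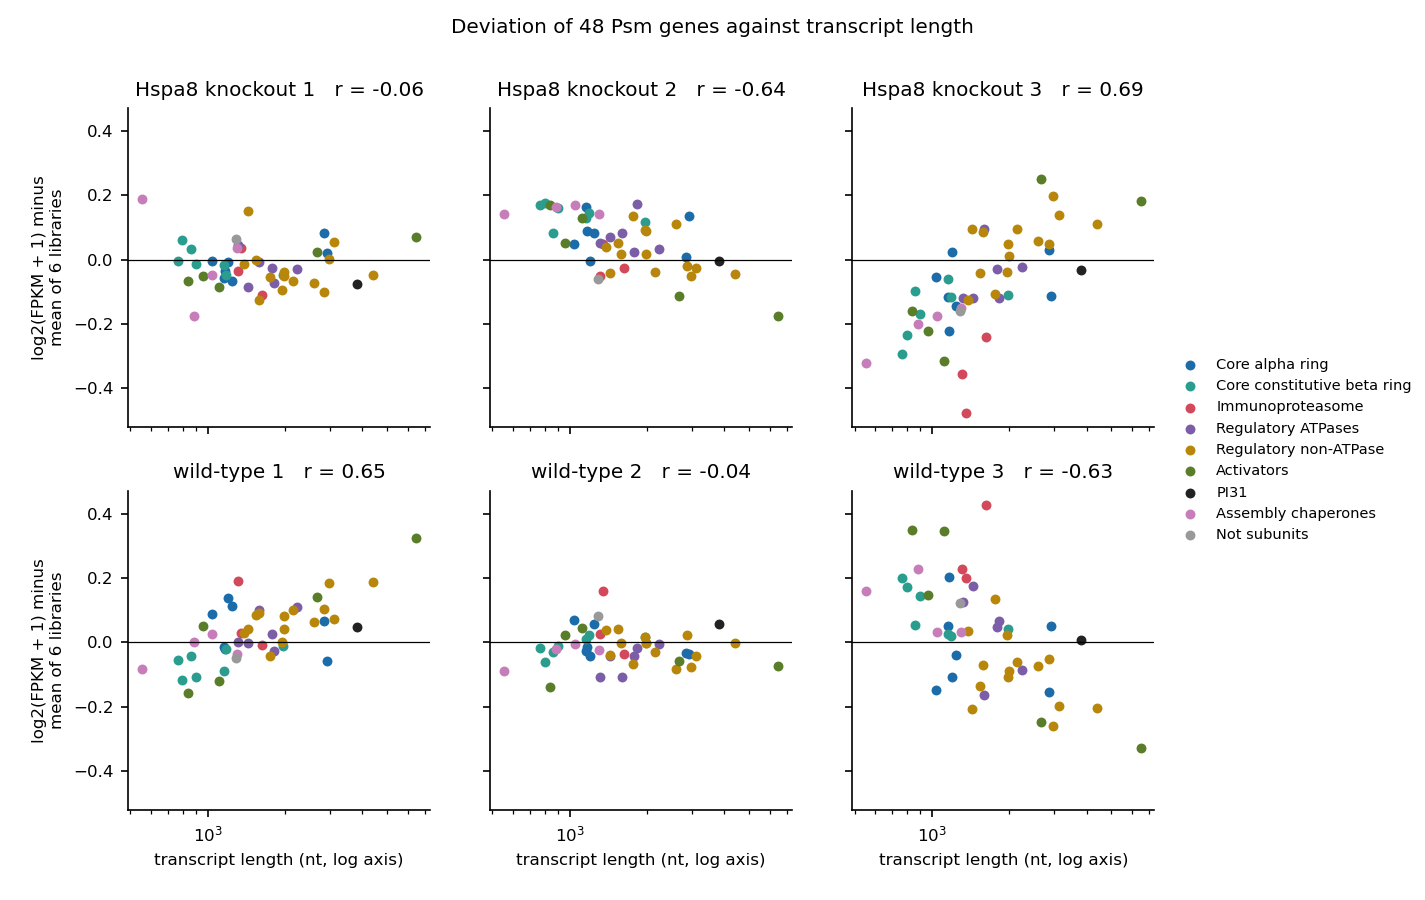
Deviation of log2(FPKM + 1) from the mean of the 6 libraries against transcript length (nt, log axis) for 48 genes, 1 panel per library with the knockout libraries in the upper panels and the wild-type libraries in the lower ones. The slope is upward in knockout replicate 3 (r = 0.69) and wild-type replicate 1 (r = 0.65) and downward in knockout replicate 2 (r = -0.64) and wild-type replicate 3 (r = -0.63).

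Genes that work with the proteasome were examined by lists. Of 9 tested genes whose proteins bind the proteasome or help to build or import it, 0 passed the test, with 2 above 0, 7 below and a median of -0.021, and with library sums equalised 7 were above 0 and 2 below. Akirin2, whose protein carries proteasomes into the nucleus in human cells, had 19.7, 23.0 and 22.4 FPKM in knockout libraries, against 26.7, 25.0 and 27.3 FPKM in wild-type libraries. Its groups did not overlap, as for 8.57% of all genes, and its log2 fold change was -0.27 (SE 0.0902, limma unadjusted p = 0.0171, adjusted p = 0.914). Pomp, the maturation factor of the core, was at -0.021 and the small regulatory subunit Sem1 at -0.12. The list of NRF1, the factor that raises proteasome genes when the proteasome is overloaded, of the proteins that release and cut it, and of the related factor NRF2 held 7 genes, with 3 values above 0 and 4 below, a median of -0.043 and 0 past the test. Nfe2l1, which encodes NRF1, was at -0.043, and Ddi2, the protease that cuts it, at -0.21 with overlapping groups. Nfe2l2, which encodes NRF2, had 33.4, 34.6 and 35.1 FPKM in knockout libraries, against 41.7, 38.4 and 37.1 FPKM in wild-type libraries (log2 fold change -0.18, limma adjusted p = 0.973).

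Among 12 shuttles and chaperone links, 4 were above 0 and 8 below (7 and 5 with library sums equalised), with a median of -0.035 and 0 past the test. Zfand5, which stimulates the proteasome, was at -0.12 with overlapping groups. Of 6 genes for ubiquitin and its activation 2 were above 0 and 4 below, with a median of -0.085 and 0 past the test. Rps27a, which encodes ubiquitin fused to a ribosomal protein, scattered most, with 70.3, 190 and 62.5 FPKM in knockout libraries, against 158, 87.9 and 191 FPKM in wild-type libraries.

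Interferon and antigen presentation genes were set beside the immunoproteasome because Psmb8 and Psmb9 lie among them, next to Tap1 (chr17:34187556-34197225) and Tap2 (chr17:34204479-34216321), the peptide transporter. All 12 tested genes of the list of 13 had a value below 0, as did 64.9% of all genes (11 of the 12 with library sums equalised), with a median of -0.13 and 0 past the test. Tap1 had 3.32, 3.29 and 2.88 FPKM in knockout libraries, against 3.24, 3.03 and 3.63 FPKM in wild-type libraries (log2 fold change -0.047). Tap2 had 7.16, 7.56 and 6.62 FPKM in knockout libraries, against 7.31, 8.58 and 9.17 FPKM in wild-type libraries (log2 fold change -0.20). Both overlapped. The groups were apart for 2 genes of the list, Irf9, a subunit of the interferon-activated transcription factor, and H2-K1, an MHC class I heavy chain, beside 8.57% of all genes. Irf9 had 6.40, 6.86 and 5.60 FPKM in knockout libraries, against 8.50, 7.39 and 10.3 FPKM in wild-type libraries (log2 fold change -0.41, limma unadjusted p = 0.0113, adjusted p = 0.908). H2-K1 had 95.6, 100.3 and 80.1 FPKM in knockout libraries, against 102, 102 and 111 FPKM in wild-type libraries (log2 fold change -0.20).

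Markers of leukocytes and endothelium, and the podocyte gene Nphs1, were, like the immunoproteasome genes, lower on average in knockout. The 18 leukocyte markers summed to 284, 396 and 249 FPKM in knockout libraries, against 348, 328 and 441 FPKM in wild-type libraries, a range of 249 to 396 in knockout and 328 to 441 in wild-type, and none was listed at 0. Of the 16 tested, 15 were below 0, as were 64.9% of all genes, with a median of -0.20. With library sums equalised 15 were again below 0, as were 50.2% of all genes. Ptprc, the pan-leukocyte marker CD45, had 1.88, 1.83 and 1.65 FPKM in knockout libraries, against 2.54, 2.19 and 2.43 FPKM in wild-type libraries, without overlap. It was the only 1 of the 16 with the groups apart, beside 8.57% of all genes. The markers nearest 0 were Cd68 (0.043), Lyz2 (-0.061), Csf1r (-0.076) and C1qb (-0.079). Cd74 had the highest level of the list, with a mean of 91.1 FPKM in knockout and 115 FPKM in wild-type. The 10 endothelial markers summed to 127, 154 and 115 FPKM in knockout libraries, against 152, 159 and 211 FPKM in wild-type libraries. All 10 were below 0, also with library sums equalised, and their median was -0.36. In limma 8 had an unadjusted p under 0.05, against 5.17% of all genes, while 0 passed the test. Nphs1 had 5.04, 4.20 and 3.25 FPKM in knockout libraries, against 4.03, 5.42 and 6.75 FPKM in wild-type libraries, and the groups overlapped (log2 fold change -0.30). By library, the median deviation from the mean of 6 was -0.037, -0.027 and -0.36 for the immunoproteasome genes in knockout libraries, against 0.030, 0.027 and 0.23 in wild-type libraries. For the leukocyte markers it was -0.21, 0.25 and -0.36 in knockout libraries, against 0.014, -0.025 and 0.28 in wild-type libraries. For the endothelial markers it was -0.18, 0.0091 and -0.32 in knockout libraries, against 0.029, 0.070 and 0.44 in wild-type libraries. For the interferon and antigen presentation list it was -0.010, -0.012 and -0.16 in knockout libraries, against 0.070, -0.041 and 0.15 in wild-type libraries. Knockout replicate 3 was lowest and wild-type replicate 3 highest in each of these lists, as also in Nphs1. In knockout replicate 2 the leukocyte markers were high and the immunoproteasome genes were not. The first principal component of all tested genes, 47.5% of the variance, also placed knockout replicate 3 and wild-type replicate 3 at its ends. The groups were mixed along it, with -10.1, 10.6 and -13.4 in knockout libraries, against -10.4, 0.21 and 23.0 in wild-type libraries. The part of these cells and libraries in the immunoproteasome values was not tested.

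**Figure D5:**
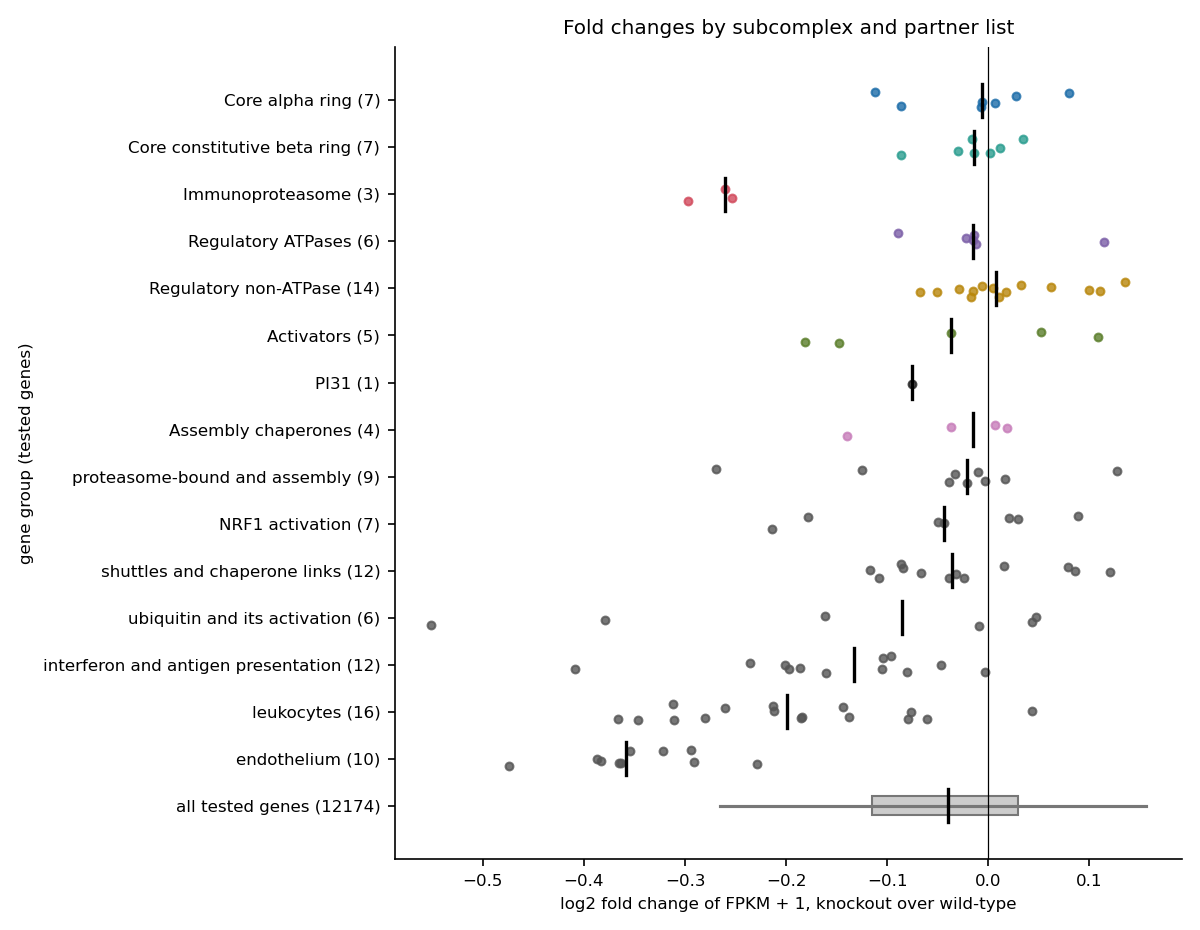
Log2 fold change of FPKM + 1, knockout over wild-type, of each tested gene by subcomplex and by partner or marker list (black bar: median), with all 12174 tested genes as a box whose line spans the 5th to the 95th percentile (-0.27 to 0.16). The subcomplexes centre near 0 except for the immunoproteasome at -0.26, and the interferon, leukocyte and endothelium lists have medians of -0.13, -0.20 and -0.36.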

How the data were processed

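Kidney RNA of 3 Hspa8 knockout and 3 wild-type samples was examined. The data are FPKM for every gene in every library, as the authors deposited them. Per the labels' protocols, total RNA went into a SMARTer mRNA library kit. GRCm38 and mm10 are the builds named, per the submitters' processing notes. Aligner, quantifier and annotation were not given in the sources used here. Wild-type columns carry the titles of their samples. Columns marked A8 and a number were read as the knockout samples so numbered, since A8 ends HSPA8. No other column of per-sample values was present. FPKM hold no read totals, so depth is unknown and low values are less precise.

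The test was limma 3.58.1 (R 4.3.3) on log2(FPKM + 1) (group as the only term, two-sided, empirical Bayes with a mean trend, Benjamini-Hochberg over 12174 genes with a mean of at least 1 FPKM, threshold 0.05). This scale understates fold changes of low genes. Intervals are 95%. It was tried on simulated data. The 3 ratios used exact permutation over samples. Values by library are given for the inducible and constitutive catalytic subunits, for Psme1 and Psme2, and for the genes of smallest p in each subcomplex. The other members were picked for their role or after their values were seen. The members and lists were chosen with earlier results of these data known. Some list members are not reported here by name, while list counts and medians include them. Transcript lengths are those of the longest protein-coding transcript of each symbol in GENCODE M21, which need not be the one expressed in kidney. Coordinates are from RefSeq GRCm38.p6, which matched all 51 symbols.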

Additional observations from a re-analysis of the deposited data

How the results depend on the processing

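Between 47 and 50 of the 51 genes were tested in each of the 16 alternatives run, and 0 were called in any. The alternatives were another pseudocount, other filters and scalings, a robust variance, the length trend removed (chosen after seeing the data), a replicate block, and libraries left out. Over all genes the count called was 0, and ranged from 0 to 5 with 1 library left out. It was 5 without knockout replicate 2 and also 5 with knockout replicate 2 and wild-type replicate 3 both left out, all of them globin genes. The immunoproteasome median of -0.26 ranged from -0.34 to -0.19. The 3 ratios ranged from -0.46 to -0.15 over the alternatives run, all below 0.

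The sign of small values turned. Psmb5 (-0.016) was 0.028 with sums equalised, 0.040 with medians equalised and 0.034 with the length trend removed, and ranged from -0.10 to 0.065 with 1 library left out. Psmb6 (0.0018) ranged from -0.086 to 0.12, Psmb7 (0.034) from -0.022 to 0.074 and Psmb3 (-0.087) from -0.19 to 0.039 with 1 library left out, and Psmb7 was -0.0011 with knockout replicate 2 and wild-type replicate 3 both left out. The cause was not tested. The median of all genes, -0.040, was -0.00047 with sums equalised and 0.0096 with medians equalised.

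Same-numbered libraries deviated with correlations of 0.31, -0.21 and -0.32. The labels name no link between samples of the same number, and these correlations cannot decide whether there is one. In the fit with a replicate block the log2 fold changes were the same by construction, 0 members and 0 genes were called, and 417 genes had an unadjusted p under 0.05. Psmb10 had an unadjusted p of 0.0550 there, and the paired exact sign-flip p of each ratio was 0.25, its smallest possible value. Depth is unknown, and 3 libraries per group limit the precision: the widest 95% interval among the 49 genes, that of Psme4, ran from -0.34 to 0.44.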
